A study of Mus musculus with 24 samples.

Results

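The genes described here are the receptors for serotonin, dopamine, noradrenaline, acetylcholine and histamine, read from the mRNA of mouse visual cortex. They were chosen by symbol alone (Htr, Drd, Chrm, Hrh, Adra or Adrb with a number, and Chrna, Chrnb, Chrnd, Chrne or Chrng), which gave 53 of the 23881 genes in the table. By transmitter, 14 were serotonin, 5 dopamine, 6 alpha adrenergic, 3 beta adrenergic, 5 muscarinic, 16 nicotinic and 4 histamine receptor genes. The study compared 3 groups of 4 libraries each on a C57BL6J background. These were miR-132/212 null mice at postnatal day 28 (P28-KO), wild-type littermates at the same age (P28-wt), and wild-type pups at postnatal day 10 (P10-wt), before the eyes open. All mice were reared normally and both sexes were used. The deletion of the miR-132/212 locus was in the germ line, so it was carried by every tissue from conception and was not limited to the cortex. A figure legend of the paper gives 4 mice for each age and genotype, that is 1 mouse per library. The 2 further numbers in each column name are not explained. The p-values measure the spread between these libraries only. Values are RPKM (read density per gene, corrected by the authors for transcript length and library size), the depth behind each value is unknown, and levels set side by side between genes below are on this per-length scale. Where 4 values are listed, they are given for P28-KO as libraries 030R, 088R, 129R and 079R, for P28-wt as 146R, 158R, 152R and 144R, and for P10-wt as 103R, 111R, 117R and 099R.

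Monoamines, acetylcholine and histamine reach the cortex through long axons from small groups of cells in the brainstem, hypothalamus and basal forebrain, and they set the gain and the plasticity of cortical circuits according to arousal and attention. Most of their receptors are coupled to G proteins: Gq-coupled types raise intracellular calcium, Gs-coupled types raise cyclic AMP and Gi-coupled types lower it. The nicotinic receptors and the serotonin 5-HT3 receptor are instead ion channels built of 5 subunits and opened directly by the transmitter. Noradrenaline and acetylcholine are both known to permit ocular dominance plasticity in visual cortex.

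The locus deleted in the mutant encodes the microRNAs miR-132 and miR-212, which repress mRNAs by pairing of their seed (bases 2 to 8) with the 3′ untranslated region (UTR). Their 4 mature sequences from RefSeq (GRCm38.p6, plus strand of chromosome 11) are shown because 2 of them share a seed and because the sites searched in the receptor genes follow from them. They lie at chr11:75173723-75173744 (miR-132-3p), chr11:75173443-75173464 (miR-212-3p), chr11:75173403-75173425 (miR-212-5p) and chr11:75173686-75173707 (miR-132-5p). Capitals mark the seed.
miR-132-3p: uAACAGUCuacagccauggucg
miR-212-3p: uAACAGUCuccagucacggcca
miR-212-5p: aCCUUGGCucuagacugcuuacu
miR-132-5p: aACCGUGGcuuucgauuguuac

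A 7-base match to the shared seed of miR-132-3p and miR-212-3p, GACTGTT on the mRNA strand, was present in the longest annotated 3′ UTR of 6 of the 53 receptor genes, Adra1a, Htr5a, Htr7, Htr1b, Chrna5 and Chrnb2. That is 11.3% of all 53 receptor genes, tested or not, against 12.3% of the 13111 tested genes with an annotated 3′ UTR. The 2 shares are not on like sets, since all 6 carriers were among the 33 receptor genes that passed the filter and were tested. The median UTR length was 1179 bases in all 53 receptor genes and 1104 bases in the tested genes. All 8 sites are printed below with the bases around them, since the mutant lacks both microRNAs of that seed. Capitals mark the 7-base match (mm10, that is GRCm38). Positions are chr14:66731736-66731742 (Adra1a, plus strand), chr5:27851608-27851614 and chr5:27853110-27853116 (Htr5a, plus), chr19:35959405-35959411 (Htr7, minus), chr9:81628837-81628843 (Htr1b, minus), chr9:55006854-55006860 and chr9:55008273-55008279 (Chrna5, plus) and chr3:89755058-89755064 (Chrnb2, minus).
Adra1a: aggagtgaacttGACTGTTgggggtctg
Htr5a, first site: atgcaatggagaGACTGTTtgaaaagca
Htr5a, second site: ccagactgtcatGACTGTTctcataaca
Htr7: gtcatccaactgGACTGTTtgaattgtg
Htr1b: gtacgcatttagGACTGTTaagctcctt
Chrna5, first site: actatatttgaaGACTGTTtaaagcttt
Chrna5, second site: tattgtgtttatGACTGTTagaatgagt
Chrnb2: ctaggcagaaggGACTGTTgagccccac
The match to miR-212-5p, GCCAAGG, was in 11 of all 53 receptor genes (20.8%, against 12.2% of tested genes), and 9 of these were tested. That to miR-132-5p, CCACGGT, was in 2 (3.77%, against 3.21% of tested genes), both tested. A match is a description of the sequence and not a measured binding site.

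The labels were checked on the deleted locus first. Mir132 was listed at 0 RPKM in all 4 P28-KO libraries, against 9.74 to 14.4 RPKM in P28-wt and 0.130 to 1.19 RPKM in P10-wt, and Mir212 was likewise at 0, against 14.0 to 24.7 RPKM in P28-wt and 0.372 to 1.43 RPKM in P10-wt. Excitatory neuron markers summed to 1199 to 1323 RPKM in P28-KO, 1224 to 1411 RPKM in P28-wt and 407 to 586 RPKM in P10-wt libraries. Markers of the aminergic and cholinergic cell bodies summed to 1.34 to 2.32 RPKM in P28-KO, 1.82 to 2.51 RPKM in P28-wt and 1.73 to 2.96 RPKM in P10-wt libraries, and none of the 7 averaged more than 1.34 RPKM in a group. In bulk tissue, fewer cells of a type and less RNA per cell cannot be told apart. Library 158R was the lowest of the P28-wt libraries for 21 of the 33 receptor genes tested, and library 103R was the lowest of the P10-wt libraries for 21.

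Of the 53 receptor genes, 33 had a mean of at least 0.5 RPKM over the 12 libraries and were tested: 10 of 14 serotonin, 2 of 5 dopamine, 5 of 6 alpha adrenergic, all 3 beta adrenergic, 4 of 5 muscarinic, 6 of 16 nicotinic and 3 of 4 histamine receptor genes. At P28-wt, 7 genes averaged at least 10 RPKM: Hrh3, Chrm1, Chrm4, Adrb1, Adra1d, Chrm3 and Chrna4. At P10-wt, 5 did: Chrm1, Chrna4, Chrnb2, Adra2a and Chrm3. The receptor mRNA of the cortex was thus led by Hrh3 at P28-wt and by Chrm1 at P10-wt. Summed over all 53 genes, receptor mRNA came to 232 ± 18.8 RPKM in P28-wt and 150 ± 14.0 RPKM in P10-wt libraries (SD, n = 4 each).

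**Figure D1:**
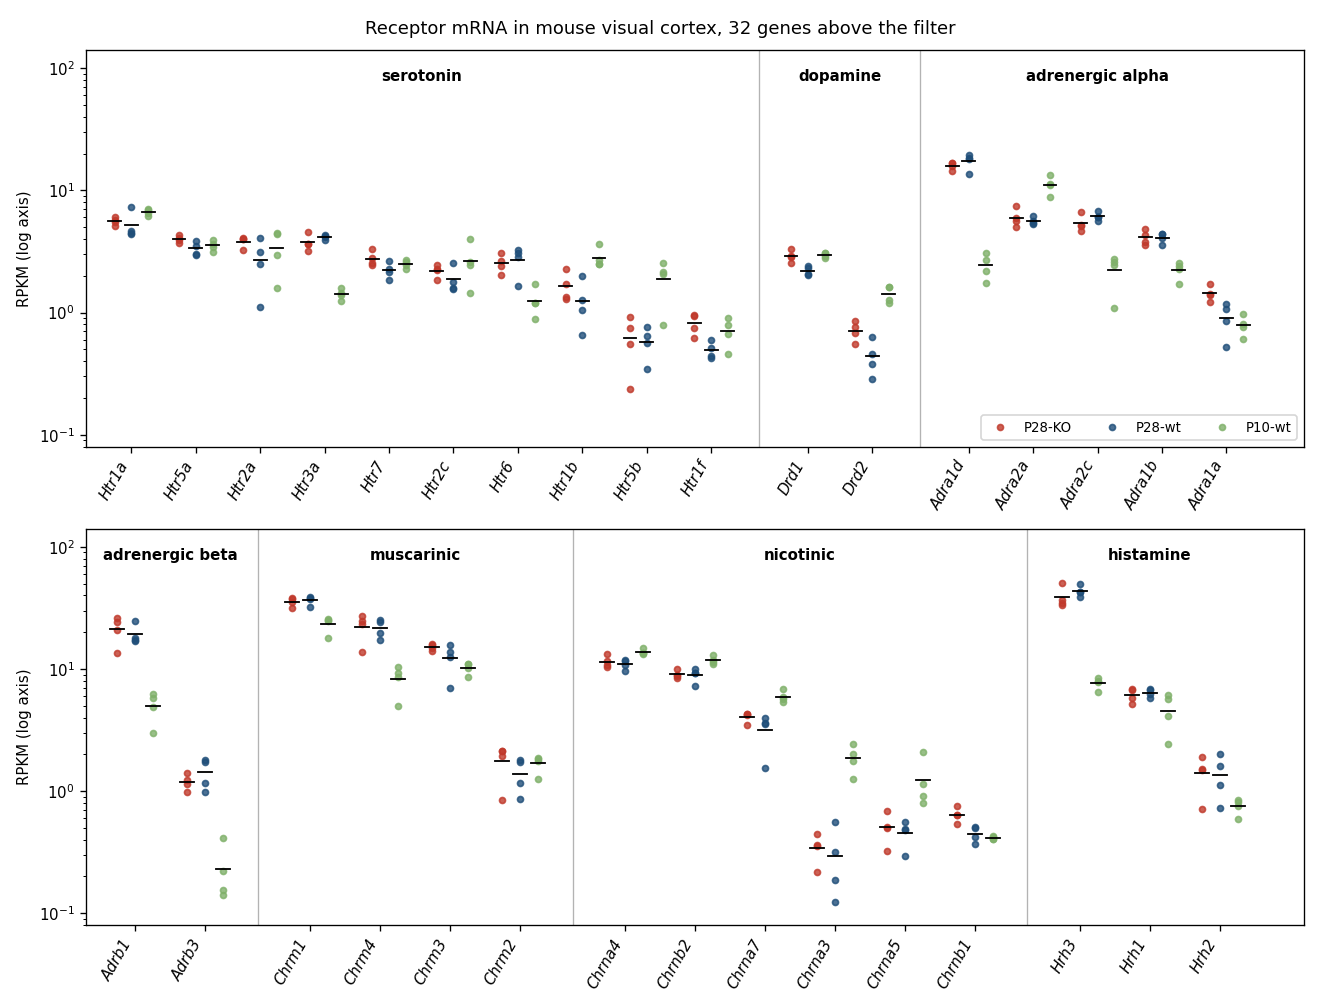
RPKM (log axis) of 32 of the 33 tested receptor genes in each of 12 libraries, grouped by transmitter, with P28-KO in red, P28-wt in blue and P10-wt in green; points are libraries and black lines are group means. Hrh3, Adra1d, Adrb1 and Chrm4 stood well above their P10-wt values at P28-wt, whereas Chrna3, Drd2 and Htr5b stood below them.

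The first comparison asked how receptor mRNA differed between P28-wt and P10-wt cortex. Between these ages 12 of 33 receptor genes rose and 10 fell (limma on log2(RPKM + 0.1), Benjamini-Hochberg adjusted p under 0.05 over 13927 genes). Among all genes tested 26.7% rose and 31.2% fell, so calls in either direction were common throughout the table, and the median log2 fold change was -0.08 for the receptor genes against -0.05 for all genes. The direction differed by transmitter. The beta adrenergic genes Adrb1 and Adrb3 rose, as did 3 of 5 alpha adrenergic, 2 of 4 muscarinic and 2 of 3 histamine genes, whereas 5 of 6 nicotinic and both dopamine genes fell and the serotonin genes were divided, with 2 up and 2 down of 10. The 2 groups of libraries did not overlap for 9 genes that were higher at P28-wt and 10 that were lower, where all genes gave 24.9% and 29.7%. Without the filter, 19.3% of 20241 genes rose and 24.2% fell.

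**Figure D2:**
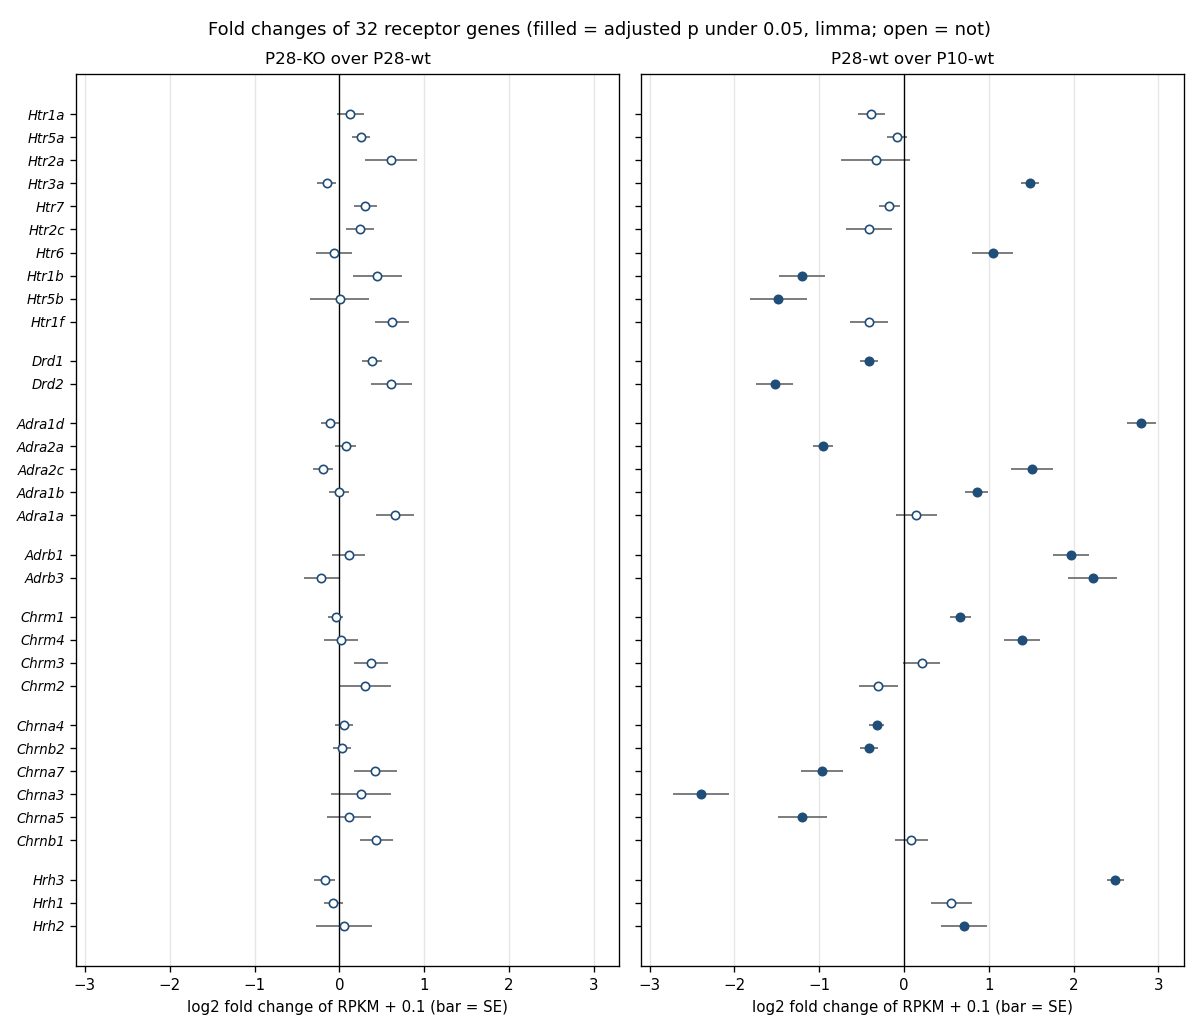
Log2 fold change (RPKM + 0.1) of 32 of the 33 tested receptor genes for P28-KO over P28-wt (left) and P28-wt over P10-wt (right), with bars of 1 SE; filled points passed an adjusted p of 0.05 (limma) and open points did not. The right panel spreads from -2.39 for Chrna3 to 2.80 for Adra1d with 21 filled points, and the left panel holds open points only, between -0.21 and 0.65.

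**Figure D3:**
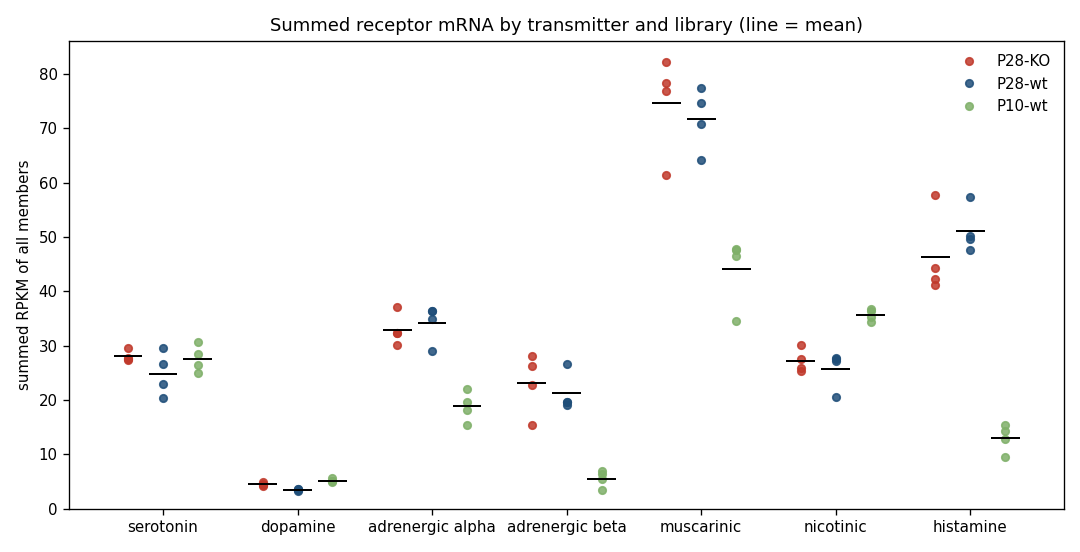
Summed RPKM of all 53 receptor genes by transmitter in each library (points; black line, group mean), with P28-KO, P28-wt and P10-wt from left to right. Histamine, muscarinic and both adrenergic sums were higher in P28-wt than in P10-wt libraries without overlap, and nicotinic and dopamine sums were lower without overlap.

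The alpha adrenergic receptors comprise the Gq-coupled alpha-1 types and the Gi-coupled alpha-2 types, and of the alpha-1 genes Adra1d and Adra1b rose. Adra1d, the alpha-1D receptor (chr2:131545357-131562285, mm10), was at 19.3, 13.5, 18.4 and 18 RPKM in P28-wt libraries, against 1.74, 2.69, 3.10 and 2.19 RPKM in P10-wt libraries. Every P28-wt library of the alpha-1D gene lay far above every P10-wt library, by 7.13 times on average and 2.80 ± 0.17 on the log2 scale (SE, limma adjusted p = 1.15e-06), which was the largest rise among the receptors. Adra1b, the alpha-1B receptor, had 4.39, 3.59, 4.08 and 4.36 RPKM in P28-wt and 1.71, 2.40, 2.27 and 2.56 RPKM in P10-wt libraries. The alpha-1B values did not overlap either, with a log2 fold change of 0.86 ± 0.14 (limma adjusted p = 0.000388). Adra1a, the third alpha-1 gene, averaged 0.905 ± 0.290 RPKM at P28-wt and 0.785 ± 0.150 RPKM at P10-wt (SD, n = 4 each) and was not called. The order of the alpha-1 genes thus differed between ages: Adra1d led both others widely at P28-wt, whereas Adra1d and Adra1b overlapped at P10-wt.

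The alpha-2 receptors, which act as autoreceptors on noradrenergic axons and also sit on cortical neurons, divided. Adra2a, the alpha-2A receptor, had 5.31, 5.61, 6.22 and 5.45 RPKM in P28-wt and 8.88, 11, 13.3 and 11.3 RPKM in P10-wt libraries. All P28-wt libraries were below all P10-wt libraries, and the alpha-2A gene fell by 0.95 on the log2 scale (SE 0.12, limma adjusted p = 7.73e-05). Adra2c, the alpha-2C receptor, was at 6.10, 5.63, 6.80 and 6.11 RPKM in P28-wt, against 2.43, 1.08, 2.62 and 2.76 RPKM in P10-wt libraries. The alpha-2C gene rose by 1.51 ± 0.25 (limma adjusted p = 0.000474) without overlap, with library 111R the lowest at P10-wt. As a result Adra2c was the higher of the pair in every P28-wt library, though barely in 158R and with overlapping ranges. At P10-wt Adra2a was the higher in every library. Adra2b, the third alpha-2 gene, never exceeded 0.107 RPKM and was not tested.

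The beta adrenergic receptors are coupled to Gs, and Adrb1 and Adrb3 rose. Adrb1, the beta-1 receptor and the main beta type of cortical neurons, was at 16.9, 18, 24.6 and 17.3 RPKM in P28-wt and 2.96, 5.75, 6.25 and 4.89 RPKM in P10-wt libraries. The lowest P28-wt library of Adrb1 was well above the highest P10-wt library, and the log2 fold change was 1.97 ± 0.21 (limma adjusted p = 3.26e-05). Adrb3, the beta-3 receptor, best known from fat tissue, had 1.81, 0.990, 1.17 and 1.72 RPKM in P28-wt against 0.141, 0.154, 0.412 and 0.221 RPKM in P10-wt libraries. It too did not overlap, with a log2 fold change of 2.23 ± 0.29 (limma adjusted p = 0.000107), at a level far below that of Adrb1.

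Hrh3, the histamine H3 receptor (chr2:180099465-180104407, mm10), is a Gi-coupled receptor that dampens release of histamine and of other transmitters from axon endings. Its level was 38.9, 43.0, 49.4 and 42.3 RPKM in P28-wt libraries, against 6.45, 8.41, 7.91 and 7.78 RPKM in P10-wt libraries. It was the highest receptor gene in each P28-wt library, with Chrm1 next, and the H3 mRNA rose 5.68-fold on average with no overlap (log2 fold change 2.49 ± 0.10, limma adjusted p = 1.06e-07). Hrh3 made up 84.8% of the summed histamine receptor mRNA at P28-wt and 58.9% at P10-wt. Hrh2, the Gs-coupled H2 receptor, had 2.0, 0.723, 1.13 and 1.59 RPKM in P28-wt against 0.589, 0.847, 0.753 and 0.806 RPKM in P10-wt libraries. Library 158R fell inside the P10-wt range and the other P28-wt libraries above it, and the call (log2 fold change 0.71 ± 0.27, limma adjusted p = 0.0453) was lost when any of 103R, 111R, 117R, 099R, 146R, 152R or 144R was left out, with adjusted p between 0.0601 and 0.122. It was also lost without the filter (limma adjusted p = 0.0742), with all 12 libraries in 1 fit (0.056) and after correction for GC content and length (0.0778). Hrh2 shares 145 exon bases with Gm16578 on the opposite strand, and the library kit kept no strand. Hrh1, the Gq-coupled H1 receptor, was at 6.40 ± 0.448 RPKM in P28-wt and 4.57 ± 1.67 RPKM in P10-wt (SD, n = 4 each) and was not called (limma adjusted p = 0.0692), but passed without 111R (0.0266) or 117R (0.0416), under quantile normalization (0.0483), with all 12 libraries in 1 fit (0.0403) and in a regularized test on RPKM (0.0144).

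Muscarinic receptors are the G protein-coupled receptors for acetylcholine: M1, M3 and M5 couple to Gq, M2 and M4 to Gi. Chrm1, the M1 receptor of excitatory neurons, had 37.3, 32.2, 38.9 and 37.9 RPKM in P28-wt and 17.8, 25.4, 24.9 and 24.5 RPKM in P10-wt libraries. The M1 gene was higher in every P28-wt library, by 0.67 ± 0.12 on the log2 scale (limma adjusted p = 0.00083). Chrm4, the M4 receptor, had 19.8, 24.1, 25 and 17.2 RPKM in P28-wt against 5.01, 9.33, 10.4 and 8.54 RPKM in P10-wt libraries. Again the groups did not overlap, with a log2 fold change of 1.39 ± 0.21 (limma adjusted p = 0.000282); 25 exon bases of Chrm4 are shared with Mdk on the opposite strand, and the library kit kept no strand. Chrm3, the M3 receptor, was at 15.7, 7.0, 12.4 and 13.9 RPKM in P28-wt and 8.56, 10.9, 10.2 and 11 RPKM in P10-wt libraries. Its P28-wt library 158R lay below all P10-wt libraries while the other P28-wt libraries lay above them, so the M3 gene was not called with all libraries (log2 fold change 0.21, limma adjusted p = 0.426) but was without 158R (0.45, adjusted p = 0.00692). Chrm2, the M2 receptor, was at 1.38 ± 0.447 RPKM in P28-wt and 1.68 ± 0.285 RPKM in P10-wt libraries (SD, n = 4 each) and was not called. The low Chrm5, the M5 receptor, was under the filter: its P28-wt values of 0.189, 0.00749, 0 and 0.0369 RPKM lay below its P10-wt values of 1.94, 0.310, 0.273 and 0.622 RPKM, of which library 103R was the highest.

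Nicotinic receptors of the brain are channels of alpha and beta subunits, chiefly alpha-4 with beta-2, or alpha-7 alone, with alpha-5 as an accessory subunit. Chrna4 was at 11.7, 9.57, 11.8 and 10.9 RPKM in P28-wt and 13.5, 13.4, 13.2 and 14.7 RPKM in P10-wt libraries. Chrnb2, the usual partner of Chrna4, had 9.20, 7.26, 9.26 and 9.93 RPKM in P28-wt against 13.1, 11, 11.9 and 11.3 RPKM in P10-wt libraries. Both subunits of the main heteromeric receptor were lower in every P28-wt library, though by little: Chrna4 fell by 0.32 on the log2 scale (SE 0.09, limma adjusted p = 0.00883) and Chrnb2 by 0.41 (SE 0.11, adjusted p = 0.00752). Chrna7, which forms the homomeric calcium-permeable receptor, was at 3.63, 1.54, 3.51 and 3.96 RPKM in P28-wt against 5.35, 5.88, 6.83 and 5.68 RPKM in P10-wt libraries. The alpha-7 gene was likewise lower without overlap, with library 158R the lowest, and fell by 0.97 on the log2 scale (SE 0.25, limma adjusted p = 0.00757).

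The steepest fall among the tested receptors was in a cluster of nicotinic genes on chromosome 9. Chrna3, the alpha-3 subunit best known from autonomic ganglia (chr9:55011343-55026559, mm10), was at 0.123, 0.317, 0.188 and 0.556 RPKM in P28-wt, against 1.76, 2.0, 1.25 and 2.43 RPKM in P10-wt libraries. It averaged 0.159 of its P10-wt level and fell by 2.39 on the log2 scale (SE 0.33, limma adjusted p = 0.000159). Chrna5, beside it (chr9:54980880-55007779), had 0.490, 0.294, 0.558 and 0.481 RPKM in P28-wt and 2.09, 0.794, 0.914 and 1.14 RPKM in P10-wt libraries. Chrna5 did not overlap either and fell by 1.2 on the log2 scale (SE 0.29, limma adjusted p = 0.00517). In the RefSeq annotation the pair share 1304 exon bases on opposite strands and the kit kept no strand, so reads from that stretch cannot be assigned to 1 of them and their falls are not separate measurements. Chrnb4, the third gene of the cluster (chr9:55028156-55048544), was at or under 0.0554 RPKM in every library. Chrnb1, the beta-1 subunit of muscle, stood at 0.449 ± 0.0665 RPKM in P28-wt and 0.415 ± 0.0112 RPKM in P10-wt libraries (SD, n = 4 each) and was not called.

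A neighbouring pair of nicotinic subunits on chromosome 8 went the other way at a level under the filter. Chrnb3 (chr8:27368711-27399730), the beta-3 subunit, was at 0.669, 0.542, 0.606 and 0.630 RPKM in P28-wt against 0.0351, 0.0960, 0.150 and 0.138 RPKM in P10-wt libraries. Chrna6 (chr8:27403212-27413944), the alpha-6 subunit with which it assembles in dopaminergic and visual pathways, had 0.734, 0.276, 0.325 and 0.421 RPKM in P28-wt and 0.0339, 0.258, 0.172 and 0.103 RPKM in P10-wt libraries. Neither gene overlapped between ages, and both were called when no filter was applied (limma adjusted p = 0.000163 for Chrnb3 and 0.0218 for Chrna6). With values this low and no depth known, the number of reads behind them is unknown.

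The serotonin receptor genes were divided, and 6 of the 10 tested were not called. Htr3a, the subunit of the 5-HT3 channel, which in cortex marks a class of superficial interneurons, was at 4.22, 4.32, 3.92 and 4.16 RPKM in P28-wt and 1.60, 1.25, 1.44 and 1.39 RPKM in P10-wt libraries. The P28-wt libraries of Htr3a lay close together and far above the P10-wt libraries (log2 fold change 1.49 ± 0.11, limma adjusted p = 2.62e-06). Its partner subunit Htr3b was at or under 0.0253 RPKM in every library. Of the interneuron markers, 4 of 8 rose (among them Vip) and 3 fell (among them Reln and Ndnf), and their sum was 421 to 548 RPKM in P28-wt against 226 to 290 RPKM in P10-wt libraries; their part in the Htr3a result was not tested. Htr6, the Gs-coupled 5-HT6 receptor, had 3.28, 1.64, 3.06 and 2.86 RPKM in P28-wt against 1.19, 0.892, 1.72 and 1.2 RPKM in P10-wt libraries. Library 158R overlapped the P10-wt range and the others did not, with a log2 fold change of 1.05 ± 0.24 (limma adjusted p = 0.00373).

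Htr1b, the Gi-coupled 5-HT1B receptor of axon endings, fell with age. It was at 1.26, 0.656, 1.06 and 2.0 RPKM in P28-wt, against 2.48, 2.68, 3.61 and 2.51 RPKM in P10-wt libraries. The highest P28-wt library was below the lowest P10-wt library, and Htr1b fell by 1.2 on the log2 scale (SE 0.27, limma adjusted p = 0.00347); 473 exon bases are shared with D430036J16Rik on the opposite strand. Htr5b, a 5-HT5B receptor that is functional in mouse but lost in human, had 0.756, 0.566, 0.637 and 0.347 RPKM in P28-wt against 2.56, 0.788, 2.13 and 2.07 RPKM in P10-wt libraries. Library 111R came close to the P28-wt libraries without overlapping them, and Htr5b fell by 1.48 on the log2 scale (SE 0.34, limma adjusted p = 0.00362). Its relative Htr5a, at 3.35 ± 0.424 RPKM in P28-wt and 3.54 ± 0.333 RPKM in P10-wt (SD, n = 4 each), was not called.

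The serotonin receptor with the highest mean level, Htr1a, encodes the Gi-coupled 5-HT1A receptor. It was at 4.66, 4.38, 4.45 and 7.38 RPKM in P28-wt and 6.18, 6.86, 7.10 and 6.58 RPKM in P10-wt libraries. In 3 P28-wt libraries it was below all P10-wt libraries, whereas 144R was above them, and it missed the threshold (log2 fold change -0.38, limma adjusted p = 0.0566). It passed without 144R (-0.56, limma adjusted p = 0.000764), with all 12 libraries in 1 limma fit (adjusted p = 0.0297) and in a regularized test on RPKM (0.0398). The Gq-coupled Htr2a, a target of psychedelics, varied widely within both groups, from 1.1 to 4.06 RPKM in P28-wt and from 1.60 to 4.47 RPKM in P10-wt libraries, with 158R and 103R at the low ends. Htr2c, Htr7 and Htr1f averaged 1.86, 2.22 and 0.492 RPKM in P28-wt against 2.63, 2.5 and 0.701 RPKM in P10-wt libraries and were not called, though Htr2c passed without 111R (limma adjusted p = 0.0308) and Htr1f without 103R (0.0369). Choroid plexus is a strong source of Htr2c, and its 8 markers summed to 2.07 to 3.12 RPKM in P28-wt and 4.86 to 6.23 RPKM in P10-wt libraries. Of the 3 markers tested, 1 rose (Ttr) and 2 fell (Kcnj13 and Sostdc1), and their part in the Htr2c values was not tested. Under the filter, Htr1d (0.112 ± 0.0388 RPKM in P28-wt, 0.375 ± 0.0739 RPKM in P10-wt) did not overlap between ages and was lower when no filter was applied (limma adjusted p = 0.000885). Htr2b was also lower there (0.0192), at or under 0.288 RPKM in every library, and Chrm5 was the third (0.00939).

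Both tested dopamine receptors fell. Drd1, the Gs-coupled D1 receptor (chr13:54051183-54055658, mm10), was at 2.05, 2.39, 2.04 and 2.33 RPKM in P28-wt against 2.77, 2.93, 3.09 and 3.09 RPKM in P10-wt libraries. The D1 values were tight within each group and did not overlap, and Drd1 fell by 0.42 on the log2 scale (SE 0.10, limma adjusted p = 0.00626). Drd2, the Gi-coupled D2 receptor, had 0.288, 0.380, 0.636 and 0.457 RPKM in P28-wt and 1.61, 1.28, 1.21 and 1.61 RPKM in P10-wt libraries. The D2 gene fell further, by 1.53 on the log2 scale (SE 0.22, limma adjusted p = 0.000208), again with no overlap. Drd2 shares 202 exon bases with Gm46111 on the opposite strand, and the library kit kept no strand. Since the striatum, which lies under the cortex, is rich in both receptors, its markers bear on them: of 6 tested, 2 rose (Penk and Tac1) and 2 fell (Rgs9 and Adora2a), and the 7 in the table summed to 56.1 to 63.0 RPKM in P28-wt against 40.8 to 56.1 RPKM in P10-wt libraries. Their part in the dopamine receptor results was not tested. Drd5, Drd4 and Drd3 averaged 0.337, 0.457 and 0.0390 RPKM in P28-wt against 0.496, 0.176 and 0.0867 RPKM in P10-wt libraries and were under the filter.

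The remaining genes under the filter were at trace levels. Of the 20 receptor genes not tested, 10 averaged less than 0.1 RPKM over the 12 libraries. They included the delta, epsilon and gamma subunits of the muscle nicotinic receptor (Chrnd, Chrne, Chrng), the hair-cell subunits Chrna9 and Chrna10, and Hrh4, the histamine receptor of blood cells. Chrnd was listed at 0 in every library. Chrna1, Chrna2 and Htr4 averaged 0.173, 0.185 and 0.158 RPKM in P28-wt against 0.167, 0.154 and 0.274 RPKM in P10-wt libraries.

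Genes that supply and clear the same transmitters were read beside the receptors. The specific membrane transporters for noradrenaline, dopamine, serotonin and choline belong to the projecting cells and were under the filter. The 2 tested uptake genes are both carriers of low affinity and high capacity, and both fell: Slc29a4, the plasma membrane monoamine transporter, was at 3.98 ± 0.55 RPKM in P28-wt against 50.5 ± 8.18 RPKM in P10-wt (SD, n = 4 each; log2 fold change -3.63, limma adjusted p = 5.73e-08), and Slc22a3 was at 0.51 ± 0.29 against 4.19 ± 0.95 RPKM (-2.95, adjusted p = 9.51e-05). Of 9 tested genes of breakdown, 3 rose and 2 fell. The monoamine oxidases moved apart, Maob at 5.26 ± 0.53 RPKM in P28-wt against 2.53 ± 0.40 RPKM in P10-wt (log2 fold change 1.04, limma adjusted p = 8.79e-05) and Maoa at 6.30 ± 0.61 against 13.0 ± 0.77 RPKM (-1.03, adjusted p = 8.52e-06). Ache, the acetylcholinesterase, fell to 18.6 ± 2.94 RPKM in P28-wt, against 31.4 ± 3.46 RPKM in P10-wt, whereas Prima1, which anchors it to membranes in brain, rose (log2 fold changes -0.76 and 3.11, limma adjusted p = 0.000417 and 3.56e-05).

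Among the 8 tested modulators and chaperones of nicotinic receptors, 3 rose and 2 fell. Lynx1, a membrane protein that binds nicotinic receptors and is known to restrain plasticity in adult mouse visual cortex, was at 92.6 ± 8.67 RPKM in P28-wt and 27.3 ± 12 RPKM in P10-wt (SD, n = 4 each; log2 fold change 1.92, limma adjusted p = 0.00107). Tmem35, an alpha-7 chaperone also called NACHO, fell to 33 ± 2.81 RPKM in P28-wt, against 60.6 ± 2.56 RPKM in P10-wt (-0.88, limma adjusted p = 9.8e-06), and Chrna7 itself also fell. Of 12 receptor partners, 4 rose, led by Ppp1r1b (DARPP-32, the dopamine-regulated phosphatase inhibitor; 54.5 ± 5.54 RPKM in P28-wt, 5.27 ± 0.91 RPKM in P10-wt, log2 fold change 3.36, limma adjusted p = 6e-08). A further 3 fell, among them S100a10, a partner of Htr1b (log2 fold change -1.79, limma adjusted p = 3.21e-06). In synthesis and vesicle loading, 1 of 3 tested genes rose (Ddc) and 1 fell (Slc18a2).

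The second comparison asked whether the receptors differed in the absence of miR-132/212. In P28-KO against P28-wt none of the 33 receptor genes passed (limma, adjusted p under 0.05 over 13927 genes). Among all genes tested only 2 passed (0.0144%), both lower, so calls were rare throughout the table. A regularized test on RPKM, the kind that the study used, also called 0 receptor genes at an adjusted p under 0.05. The study set its threshold instead on a posterior probability of differential expression and reported many more differing genes. The count of 0 is therefore not the study's own result for these receptors. At an unadjusted p under 0.05, 7 receptor genes were higher and 0 lower, beside 4.27% of all genes higher and 8.11% lower. Among the 33 tested, the groups of libraries did not overlap for 4 receptor genes that were higher and for none that was lower, where all genes gave 1.87% and 3.62%. Chrnb1, among both the 7 and the 4, passed the filter only through its P28-KO libraries. Under the filter, Chrnb3 was lower without overlap, at 0.406 to 0.503 RPKM in P28-KO and 0.542 to 0.669 RPKM in P28-wt libraries. With no filter applied, Chrnb3 had an unadjusted p under 0.05 but was not called (limma adjusted p = 0.494). In all, 25 of 33 receptor genes (75.8%) had a fold change above 0, against 43.7% of all genes, and the median log2 fold change was 0.11 against -0.03. These counts moved with single libraries of either genotype. Leaving out 1 library at a time, between 19 (without 088R) and 28 (without 079R) of 33 were above 0, with 20 without 030R or 158R, and the median lay between 0.07 (without 158R) and 0.23 (without 079R). Without 158R, the lowest P28-wt library for most receptor genes, 3 were higher and 1 (Adra1d) lower at an unadjusted p under 0.05. The P28-wt libraries are shared with the age comparison, so the 2 comparisons are not independent.

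Htr1f, the Gi-coupled 5-HT1F receptor, and Drd1 were among the 4 without overlap. Htr1f (chr16:64924729-65105784, mm10) was at 0.958, 0.621, 0.749 and 0.941 RPKM in P28-KO and 0.437, 0.421, 0.517 and 0.592 RPKM in P28-wt libraries. The P28-KO values began just above the highest P28-wt value, with a log2 fold change of 0.62 ± 0.20 (limma adjusted p = 0.382). Drd1 had 2.86, 2.88, 2.57 and 3.31 RPKM in P28-KO against 2.05, 2.39, 2.04 and 2.33 RPKM in P28-wt libraries. Its mutant libraries all lay above the wild-type ones (log2 fold change 0.38 ± 0.12, limma adjusted p = 0.382). The mean of Drd1, 2.91 ± 0.308 RPKM in P28-KO, stood beside 2.20 ± 0.183 RPKM in P28-wt and 2.97 ± 0.152 RPKM in P10-wt (SD, n = 4 each). Drd2 had 0.552, 0.681, 0.761 and 0.854 RPKM in P28-KO against 0.288, 0.380, 0.636 and 0.457 RPKM in P28-wt libraries. Mutant library 030R of Drd2 lay within the wild-type range and the others above it (log2 fold change 0.61 ± 0.24, limma adjusted p = 0.394), and its P28-KO mean of 0.712 ± 0.128 RPKM was still below all P10-wt values. The striatal markers summed to 57.0 to 60.2 RPKM in P28-KO and 56.1 to 63.0 RPKM in P28-wt libraries, and none of 6 was called. At an unadjusted p under 0.05 (limma), however, Tac1 was higher (9.47 ± 0.515 RPKM in P28-KO, 7.51 ± 1.62 RPKM in P28-wt, log2 fold change 0.36) and Penk lower (13.5 ± 0.412 RPKM in P28-KO, 16 ± 2.36 RPKM in P28-wt, -0.23). Their part in the dopamine receptor values of the mutant was not tested.

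Adra1a, which carries 1 of the sites printed above (gene at chr14:66635251-66771168, mm10), had 1.38, 1.23, 1.42 and 1.70 RPKM in P28-KO and 1.18, 0.520, 0.852 and 1.07 RPKM in P28-wt libraries. The alpha-1A groups did not overlap, with a log2 fold change of 0.65 ± 0.23 (limma adjusted p = 0.382), and 0.44 without library 158R. Htr5a, with 2 sites, had 4.27, 3.72, 3.96 and 4.05 RPKM in P28-KO against 3.87, 2.97, 3.04 and 3.51 RPKM in P28-wt libraries. Only P28-KO library 088R of this 5-HT5A receptor gene overlapped (log2 fold change 0.26 ± 0.11, limma adjusted p = 0.40). Htr7, the Gs-coupled 5-HT7 receptor, with 1 site, was at 2.55, 3.28, 2.46 and 2.77 RPKM in P28-KO against 2.13, 2.25, 1.85 and 2.66 RPKM in P28-wt libraries. Here mutant libraries 030R and 129R overlapped the wild-type range (log2 fold change 0.31 ± 0.14, limma adjusted p = 0.403). Chrnb1, without a site, was at 0.540, 0.758, 0.634 and 0.638 RPKM in P28-KO and 0.420, 0.369, 0.506 and 0.502 RPKM in P28-wt libraries. Its groups did not overlap (log2 fold change 0.44 ± 0.19, limma adjusted p = 0.402). The mean of Chrnb1 over all 12 libraries, 0.502 RPKM, passed the filter of 0.5 RPKM only through P28-KO. It averaged 0.643 RPKM there, 0.449 RPKM in P28-wt and 0.415 RPKM in P10-wt libraries.

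**Figure D4:**
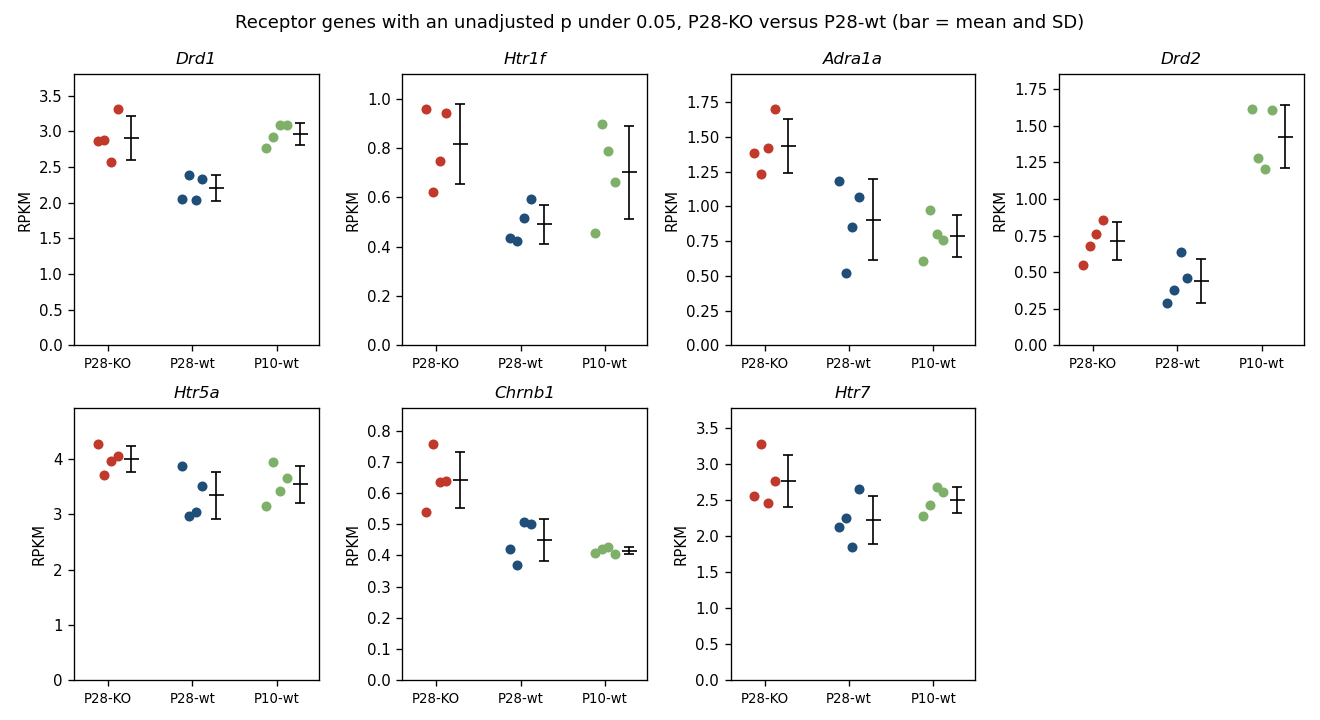
RPKM of the 7 receptor genes with an unadjusted p under 0.05 in P28-KO versus P28-wt, in each library of P28-KO (red), P28-wt (blue) and P10-wt (green); black marks are the mean and SD of 4 libraries. Drd1, Htr1f, Adra1a and Chrnb1 did not overlap between P28-KO and P28-wt, and none of the 7 passed the adjusted threshold.

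With all libraries the unadjusted p (limma) was 0.00751 for Drd1, 0.010 for Htr1f, 0.015 for Adra1a, 0.0267 for Drd2, 0.0403 for Htr5a, 0.046 for Chrnb1 and 0.0497 for Htr7. Leaving out each P28 library in turn kept the unadjusted p of Htr1f between 0.00437 and 0.0345, that of Drd1 between 0.00629 and 0.0275 and that of Adra1a between 0.00643 and 0.0451, whereas Drd2, Chrnb1, Htr5a and Htr7 each exceeded 0.05 in some of these fits (up to 0.0760, 0.104, 0.109 and 0.146). Without 158R these 4 had unadjusted p of 0.0548, 0.103, 0.0935 and 0.0636. The number of receptor genes with an unadjusted p under 0.05 was 3 higher and 0 lower without 079R, 4 and 0 without 129R or 152R, 6 and 3 without 088R, in which Adra2c, Hrh3 and Htr3a were the lower ones, and 10 and 0 without 144R.

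All 6 receptor genes with a site for the shared seed had a mutant log2 fold change above 0, from 0.03 to 0.65 with a median of 0.28, although Chrna5 and Chrnb2 turned below 0 after correction for GC content and length. Of the 6, 3 had an unadjusted p under 0.05. Among all 1610 tested genes with the site, 59.7% were above 0 and 8.14% were higher at an unadjusted p under 0.05, against 41.2% and 3.49% of the 11501 without it. Of the 27 tested receptor genes without the site, 19 were also above 0, with a median of 0.07. Of these 27, 4 (Drd1, Htr1f, Drd2 and Chrnb1) were higher at an unadjusted p under 0.05. Over all genes the medians were 0.04 with the site and -0.04 without. The 3 site carriers not described yet were Htr1b, Chrna5 and Chrnb2. Htr1b was at 1.30, 1.72, 2.28 and 1.33 RPKM in P28-KO against 1.26, 0.656, 1.06 and 2.0 RPKM in P28-wt libraries, which overlapped (log2 fold change 0.45, limma adjusted p = 0.507), and the fold change was 0.20 without 158R. Chrna5 and Chrnb2 had log2 fold changes of 0.11 and 0.03, which turned to -0.04 and -0.06 without 158R. For the miR-212-5p site the median was 0.07 over 9 tested receptor genes with it and 0.12 over 24 without.

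Apart from Drd1, described above, the receptors that led each family in level overlapped between the genotypes, and none of them was called. Hrh3 was at 37.0, 50.2, 33.6 and 34.6 RPKM in P28-KO against 38.9, 43.0, 49.4 and 42.3 RPKM in P28-wt libraries. In 3 mutant libraries Hrh3 was below every wild-type library, and in 088R it was above them (log2 fold change -0.17, limma adjusted p = 0.554; -0.30 and 0.151 without 088R). Adrb1 had 25.9, 24.2, 20.8 and 13.5 RPKM in P28-KO and 16.9, 18, 24.6 and 17.3 RPKM in P28-wt libraries, so that the mutant libraries spread around the wild-type ones. Chrm1 was at 37.2, 37.8, 35.2 and 31.6 RPKM in P28-KO and 37.3, 32.2, 38.9 and 37.9 RPKM in P28-wt libraries. Adra1d had 15.9, 16.8, 16.6 and 14.4 RPKM in P28-KO against 19.3, 13.5, 18.4 and 18 RPKM in P28-wt libraries. For the M1 gene both genotypes thus stayed within a shared range. The alpha-1D groups overlapped only through 158R, which lay below every mutant library, whereas the other P28-wt libraries lay above them all. Its log2 fold change was -0.11 (limma adjusted p = 0.676), and -0.22 (0.454) without 158R. Chrna4 had 10.7, 13.2, 10.3 and 11.5 RPKM in P28-KO against 11.7, 9.57, 11.8 and 10.9 RPKM in P28-wt libraries. Htr1a had 5.12, 6.02, 5.52 and 5.71 RPKM in P28-KO against 4.66, 4.38, 4.45 and 7.38 RPKM in P28-wt libraries, the last of these above every mutant library. None of the tested genes of synthesis, uptake, breakdown, nicotinic modulation or receptor partners was called in the mutant either. At an unadjusted p under 0.05 (limma), Maob was higher (0.0193). By the same measure Gipc1 (0.00387), Lynx1 (0.0326), Prima1 (0.0337), Ppp1r1b (0.0439) and Snx17 (0.0478) were lower. Oligodendrocyte markers summed to 1199 to 1526 RPKM in P28-KO and 1621 to 2328 RPKM in P28-wt libraries, with the highest sum in 158R, and their part in the receptor values was not tested.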

How the data were processed

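Total RNA of visual cortex was made into mRNA libraries (TruSeq RNA v2, which keeps no strand). The authors deposited RPKM per gene, computed from reads aligned with ELAND v2e to mm10 and RefSeq and kept when unique; the labels also name CASAVA 1.8.2, SAMtools 0.1.19 and Bowtie 0.12.8. No counts were given, and read steps could not be recovered (9.68% of 2375 ratios of low values lay within 0.05 of a whole number, 10% by chance), so precision is given by the 4 libraries per group. Small RNA libraries were not analysed here. Each pair of groups was fitted with limma 3.58.1 in R 4.3.3 (trend, two-sided) on log2(RPKM + 0.1) over genes averaging at least 0.5 RPKM in 12 libraries; fold changes on this scale understate those of low genes. Scripts were tested on simulated data. The members and lists were chosen with earlier results of these data known. Values in every library are given for genes called with age and averaging at least 1 RPKM in P28-wt or P10-wt, for genes with an unadjusted p under 0.05 in the mutant, and for the highest gene of each family; Chrm3, Chrm5, Chrnb3, Chrna6 and Htr1b in the mutant were added after their values were seen. Sites were searched on the mRNA strand of RefSeq transcripts (GRCm38.p6). Alternatives were another pseudocount, filter, scaling, fit or test, correction for GC content and length, leaving out each library, and the replicate number of the column names as a block. One receptor gene entered the counts but is not reported here.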

Additional observations from a re-analysis of the deposited data

Results flagged for a closer look

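In 7 of 99 groups of 4 libraries (33 receptor genes in 3 groups), 1 library lay apart from the others by Dixon's criterion, which flags about 1 in 20 groups by chance. Chrm2 was low in P28-KO library 088R (0.840 RPKM, others 1.95 to 2.15) and in P10-wt library 103R (1.26 RPKM, others 1.77 to 1.86). Chrm1 was low in 103R as well (17.8 RPKM). Htr2a was low in 088R (3.23 RPKM) and Chrna7 in P28-KO library 129R (3.46 RPKM). Htr1a was high in P28-wt library 144R (7.38 RPKM), and Adrb1 was high in P28-wt library 152R (24.6 RPKM). No cause of these values was tested.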

How the results depend on the processing

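Across the alternatives the number of receptor genes that rose with age ranged from 9 to 13 (10 to 13 when 1 library was left out) and the number that fell from 10 to 13 (10 to 11), except that 5 fell when a mean of at least 2 RPKM was required, where only 21 receptor genes were tested. No alternative called a receptor gene in the mutant. With a pseudocount of 1 the calls held but low genes moved less (Chrna3 -1.14, Adrb3 0.97, Drd2 -0.75 on the log2 scale). Among the fold changes given in the text, signs turned only in genes that were not called. With age these were Chrnb1 (-0.0063) and Htr5a (0.14) after correction for GC content and length, and Htr2a (0.025 without 158R). In the mutant they were Adra1d (0.060), Chrna5 (-0.043) and Chrnb2 (-0.0064) after the same correction, Chrm1 under quantile normalization (0.028), and, over the fits leaving out 1 library, Adrb1 (-0.0034 to 0.31), Chrm1 (-0.10 to 0.010), Chrna4 (-0.014 to 0.10, and -0.0084 without 158R), Chrna5 (-0.044 to 0.27, and -0.026 without 129R) and Chrnb2 (-0.064 to 0.084, and -0.022 without 088R). The causes were not tested. The sample titles give no replicate numbers, but the column names number the libraries 1 to 4 in each group. Not every pair of libraries with the same number deviated together from the group means (r across genes -0.05 to 0.11 with age and -0.09 to 0.28 in the mutant), so the number was not used for pairing. With the number as a replicate block, an alternative chosen after seeing the data, 11 receptor genes rose and 10 fell with age, Hrh2 being lost (adjusted p = 0.069), and none was called in the mutant. With no depth known, the number of reads behind values under 1 RPKM cannot be given.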
